A study of Mus musculus with 27 samples.

Results

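The Fos, Jun and Egr immediate early genes were followed through the injury and repair of mouse skeletal muscle. Entries whose gene name was Fos, Fosb, Fosl1, Fosl2, Jun, Junb, Jund, Egr1, Egr2 or Egr3 were taken from both deposited tables. All 10 members were found once in each table, among 55852 entries in the table of injured muscle and 55677 in the table with control muscle. The tables cover 27 RNA libraries from male mice, 3 in each group. Injured muscle came from WT mice and from Gsdme KO mice, taken 1 day (D1), 4 days (D4), 7 days (D7) or 14 days (D14) after injection of cardiotoxin (CTX), a cobra toxin that destroys fibres but leaves satellite cells able to rebuild them. The control group was muscle of WT mice that was taken as uninjured, and there was no uninjured KO group. Gasdermin E, the product of Gsdme, is cut by caspases and then opens pores in membranes, and the study describes its deletion in all cells of the animal. Sample titles say KO whereas the genotype field says knockdown, and KO below means libraries labelled KO. The study names the gastrocnemius and a contralateral control, and the labels give only muscle. The labels do not say that libraries of a group came from separate animals, so that p-values measure the spread between these samples, which may be technical.

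Immediate early genes are transcribed within minutes of a stimulus, without the need for new protein, and most of their transcripts are short lived. Proteins of the Fos family pair with proteins of the Jun family to form AP-1, which binds DNA at the site TGACTCA, and Jun proteins also pair with one another and with ATF proteins. Egr proteins are zinc finger factors that bind GC-rich sites such as GCGTGGGCG. In injured muscle these factors are induced in stressed fibres, activated satellite cells, stromal cells and infiltrating leukocytes, so that their level in whole muscle sums over many cell types. On GRCm38 (GENCODE), the Fos family genes lie at chr12:85473890-85477273 (Fos), chr7:19302696-19310051 (Fosb), chr19:5447547-5455946 (Fosl1) and chr5:32135801-32157842 (Fosl2). The Jun family genes lie at chr4:95049034-95052222 (Jun), chr8:84974484-84978718 (Junb) and chr8:70698949-70700616 (Jund), and Egr2 and Egr3 at chr10:67535475-67542188 and chr14:70077203-70082614.

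The sequences just upstream of the members are shown because some of the known inputs to these genes are read there. Serum response factor binds the CArG box (CC and GG around a run of A and T bases), and CREB and ATF proteins bind the cAMP response element TGACGTCA or its core site TGACG. The site TGACATCA, which the promoter of Jun is known for, is bound by Jun together with ATF2. Promoters were taken from a RefSeq table on GRCm38.p6, in which 7 of the 10 members were matched (Fos, Fosb, Fosl2, Jun, Junb, Jund and Egr2), in 11 windows. The 250 bases before each start were searched on both strands. Below are 110 bases for 5 members, ending 10 bases before the annotated start, on the strand of the gene. They lie at chr12:85473770-85473879 (Fos, + strand), chr7:19310056-19310165 (Fosb, - strand), chr4:95052233-95052342 (Jun, - strand), chr8:84978759-84978868 (Junb, - strand) and chr10:67537749-67537858 (Egr2, + strand). Capitals mark the core site TGACG or its reverse CGTCA, the site TGACATCA and the CArG box.
Fos: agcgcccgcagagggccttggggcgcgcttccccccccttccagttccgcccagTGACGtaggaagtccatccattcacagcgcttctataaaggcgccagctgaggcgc
Fosb: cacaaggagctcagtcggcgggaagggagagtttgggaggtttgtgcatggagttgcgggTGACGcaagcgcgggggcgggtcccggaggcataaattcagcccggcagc
Jun: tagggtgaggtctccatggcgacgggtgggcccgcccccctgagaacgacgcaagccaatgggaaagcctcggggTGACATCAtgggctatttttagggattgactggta
Junb: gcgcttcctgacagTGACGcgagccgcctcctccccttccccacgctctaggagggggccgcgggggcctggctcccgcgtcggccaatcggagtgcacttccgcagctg
Egr2: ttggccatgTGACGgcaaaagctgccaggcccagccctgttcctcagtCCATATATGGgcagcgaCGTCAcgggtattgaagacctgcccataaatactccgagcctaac

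The core site TGACG stood upstream of Fos, Fosb, Junb and Egr2, which is 4 of 7 members, and in 17.8% of all 32851 RefSeq promoters of the same length. In Egr2 it stood on both sides of a CArG box that covered the bases from -72 to -63 before the start. Within the 250 bases searched, the CArG box was found in 1 of 7 members and in 1.47% of all promoters. Bases further upstream were not searched, so that a member without a match here may hold the motif elsewhere. The site TGACATCA was found upstream of Jun alone among the 7, from -45 to -38, and in 2.93% of all promoters. The full element TGACGTCA, which contains the core (1.55% of promoters), the AP-1 site TGACTCA (4.46%) and the Egr site GCGTGGGCG (0.536%) were in none of these members' windows. Egr2 has several windows in RefSeq, and the one shown was chosen because it holds both motifs. The RefSeq window of Jund, which counts among the 7, lies upstream of the start that GENCODE gives this gene. A match describes the letters only and says nothing of binding.

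The deposited values are TPM (an abundance of transcripts scaled for gene length and to the same total in each library), so that depth is unknown and no limit of detection was derived. Libraries had from 11785 to 14704 genes with at least 1 TPM. Gsdme was between 1.46 and 4.85 TPM in WT and between 0.95 and 2.17 TPM in KO injured libraries, with overlap on D14 only. KO D4 replicate 2 stood apart, with 12961 genes at 1 TPM or above, against 14380 and 13960 in the other KO D4 libraries. The WT D1 libraries are present in both tables, and the study sequenced 2 batches without stating theirs. Injury or genotype therefore cannot be told apart from batch at D1. In whole muscle, fewer cells of a type and less RNA per cell cannot be told apart.

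In control muscle the members spanned a wide range of mean TPM, in the order Jund (37.7), Jun (31.6), Junb (7.86), Fosl2 (4.28), Fos (3.68), Egr1 (3.01), Egr2 (0.963), Fosb (0.313), Egr3 (0.267) and Fosl1 (0.09). The libraries overlapped between Jund and Jun, among Fosl2, Fos and Egr1, and between Fosb and Egr3, and the other neighbours in this order did not overlap. On D1 in WT muscle the order by mean TPM was Junb (88.7), Jund (80.1), Jun (59.4), Fos (23.3), Egr1 (17.9), Fosl2 (15.2), Fosl1 (11.9), Egr2 (3.47), Fosb (2.11) and Egr3 (0.507). The libraries overlapped among the first 3 genes in this order, among the 4 from Fos to Fosl1, and between Egr2 and Fosb. Junb, a Jun protein with weaker activation than Jun itself, thus moved from the third place to the first. By D14 the order in WT muscle was led again by Jund (58.1) and Jun (32.4), with Junb at 11.9.

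**Figure D1:**
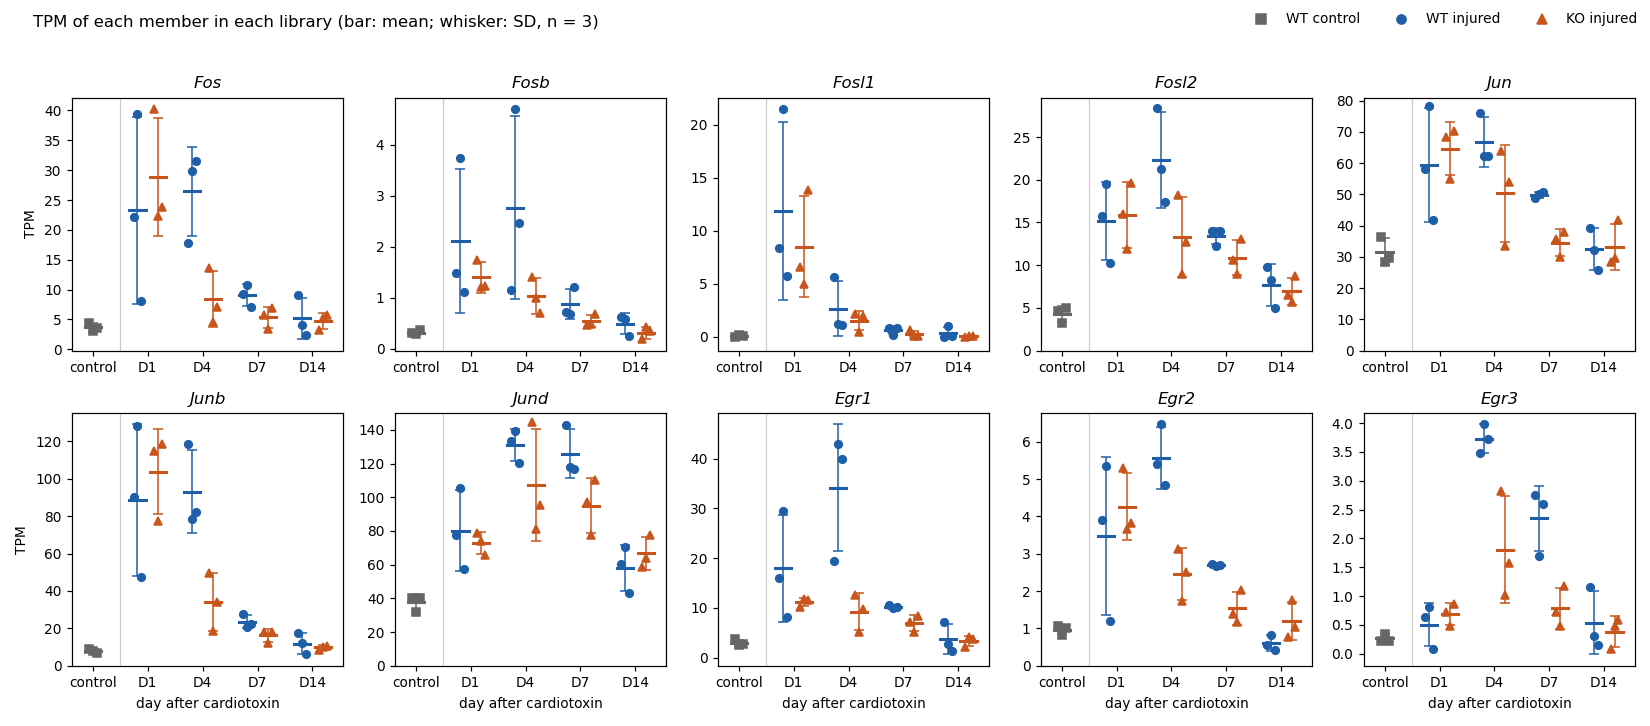
TPM of each member (vertical axis) in each of 3 libraries per group by day after cardiotoxin (horizontal axis), with control muscle as squares, WT as circles and KO as triangles; bars are means and whiskers SD. Fosl1 is highest on D1, the 3 WT libraries of Egr3 on D4 sit between 3.48 and 3.98, and Jund stays high on D7 in WT muscle.

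To see which members respond to injury, WT D1 muscle was compared with control muscle within the table that holds both. Of 9 members tested, 9 were called higher (limma, adjusted p under 0.05 over all genes tested), when 55.4% of all 13041 genes tested were called higher. All genes had a median log2 difference of 0.66, and the members had a median of 1.59. With median-of-ratios scaling, which sets the middle gene to about 0, the members' median was 0.90 and 6 of the 9 were still called. The share of all genes called with that scaling is not given here.

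Among the Fos family, Fosl1 moved most on the log2 scale. Fosl1, which encodes Fra-1 and is itself a target of AP-1, was listed at 0, 0.16 and 0.11 TPM in control muscle and at 8.35, 21.5 and 5.75 TPM on D1. Its log2 difference was 3.37 ± 0.41 (SE, adjusted p = 0.0013). Fos, the founding member whose transcript is among the most short lived, was at 4.49, 3.04 and 3.50 TPM in control muscle and at 22.2, 39.5 and 8.13 TPM on D1. The groups did not overlap, the ratio of mean TPM was 6.34, and the log2 difference was 2.14 ± 0.47 (adjusted p = 0.0063). Fosl2, which encodes Fra-2, rose 3.55-fold in mean TPM (log2 difference 1.59 ± 0.27, adjusted p = 0.0027). Fosb stayed at low TPM, from 0.28 to 0.36 in control and from 1.12 to 3.74 on D1, with a log2 difference of 1.15 ± 0.30 (adjusted p = 0.012).

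In the Jun family, Junb stood out from Jun and Jund. Junb was at 8.92, 8.06 and 6.61 TPM in control muscle and at 90.3, 128 and 47.3 TPM on D1, which is an 11.3-fold ratio of mean TPM. Its log2 difference was 3.24 ± 0.33 (adjusted p = 0.001). Jun, the main transactivator of the family, was at 36.5, 28.5 and 29.7 TPM in control and at 58.1, 78.3 and 41.9 TPM on D1, a log2 difference of 0.86 ± 0.24 (adjusted p = 0.015). Jund, known for its steady expression in resting cells, differed by 1.03 ± 0.23 (adjusted p = 0.0068). With median-of-ratios scaling the difference was 0.08 for Jun (adjusted p = 0.71) and 0.26 for Jund (adjusted p = 0.21), and neither was called. Jun was also not called without control replicate 2 (adjusted p = 0.059) or control replicate 3 (adjusted p = 0.051).

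In the Egr family, Egr1 carried most of the increase. Egr1, which is induced by growth factors and mechanical stress, was at 3.72, 2.61 and 2.69 TPM in control muscle and at 16.1, 29.5 and 8.24 TPM on D1. The ratio of mean TPM was 5.97 and the log2 difference was 2.09 ± 0.40 (adjusted p = 0.0038). Egr2, known as Krox20 for its role in hindbrain and Schwann cell development, was at 1.06, 0.83 and 1.00 TPM in control and at 3.89, 5.34 and 1.19 TPM on D1 (log2 difference 1.06 ± 0.37, adjusted p = 0.035). It was not called with median-of-ratios scaling (0.55, adjusted p = 0.17) or without the filter on low values (adjusted p = 0.12), nor when any control library or WT D1 replicate 1 or 2 was left out (adjusted p from 0.073 to 0.1). Egr3, needed for muscle spindles, was at 0.22, 0.35 and 0.23 TPM in control and at 0.63, 0.81 and 0.08 TPM on D1. It overlapped between the groups and was below the filter for testing.

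From D1 to D4 in WT muscle the members parted. Of 10 members, 3 were called (limma), when 19.8% of all 15718 genes tested were called in either direction. Egr3 was at 0.63, 0.81 and 0.08 TPM on D1 and at 3.48, 3.98 and 3.73 TPM on D4, a 7.36-fold ratio of mean TPM and a log2 difference of 1.68 ± 0.27 (adjusted p = 0.00035). Its call held in each setting in which it could be tested for this step. Jund rose from 77.4, 106 and 57.5 TPM to 133, 139 and 120.3 TPM (log2 difference 0.74 ± 0.23, adjusted p = 0.026). Fosl1 fell from 8.35, 21.5 and 5.75 TPM to 5.62, 1.21 and 1.12 TPM (log2 difference -1.84 ± 0.48, adjusted p = 0.0098). The groups did not overlap for any of these 3 genes. Jund was not called without WT D1 replicate 1 or 3 or WT D4 replicate 1 or 2 (adjusted p from 0.064 to 0.16), and Fosl1 was not called without WT D1 replicate 2 or WT D4 replicate 2 (adjusted p = 0.051 each). A pseudocount of 0.1 also ended the call of Fosl1 (adjusted p = 0.073), and so did a fit of only the 2 groups (adjusted p = 0.1), which ended that of Jund too (adjusted p = 0.12). Without WT D1 replicate 2, Egr1 (1.41, adjusted p = 0.027) and Egr2 (1.00, adjusted p = 0.017) were called higher. Fos, Fosb, Fosl2, Jun and Junb overlapped between the 2 days and were not called.

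From D4 to D7 in WT muscle all 10 members had lower means, and 2 were called lower, when 9.31% of all genes tested were. Junb dropped from 119, 78.4 and 82.4 TPM to 27.5, 20.9 and 22.2 TPM. Its log2 difference was -1.93 ± 0.37 (adjusted p = 0.0061), the largest of the 10 members in this step. Egr1 dropped from 19.5, 43.0 and 40.0 TPM to 10.6, 9.94 and 10.3 TPM (log2 difference -1.56 ± 0.43, adjusted p = 0.027). An unadjusted p under 0.05 (limma) was reached by 7 members and by 5263 of all 15718 genes tested. Libraries of the 2 days overlapped for Fosb and Jund, and the share of all genes without overlap was not counted for this step. Fos was at 17.8, 29.9 and 31.6 TPM on D4 and at 9.35, 10.7 and 7.11 TPM on D7, and just missed the threshold (log2 difference -1.42 ± 0.47, adjusted p = 0.053). Egr1 was not called when WT D4 replicate 2 or 3 or WT D7 replicate 2 or 3 was left out (adjusted p from 0.063 to 0.093), nor without the filter (adjusted p = 0.051), and Fosb was called as well without WT D4 replicate 1 (-1.25, adjusted p = 0.039). Jund, at 143, 118 and 116 TPM on D7, turned to a difference of 0.22 with median-of-ratios scaling, where the median of all genes moved from -0.24 to -0.01.

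From D7 to D14 in WT muscle 7 of 10 members were called lower, when 30.9% of all genes tested were. These were Jund (-1.12 ± 0.23, adjusted p = 0.0059), Egr1 (-1.45 ± 0.43, adjusted p = 0.019), Egr2 (-1.22 ± 0.29, adjusted p = 0.0092), Egr3 (-1.16 ± 0.27, adjusted p = 0.0087), Junb (-1.02 ± 0.37, adjusted p = 0.042), Fosl2 (-0.78 ± 0.28, adjusted p = 0.04) and Jun (-0.63 ± 0.23, adjusted p = 0.047). Jund was at 60.4, 70.6 and 43.2 TPM on D14, below all 3 libraries of D7. Egr2 was at 2.73, 2.68 and 2.71 TPM on D7 and at 0.56, 0.83 and 0.41 TPM on D14. Without WT D14 replicate 3, whose summed macrophage markers were the lowest of its group, 0 of 10 members were called by limma, with Jund nearest to the threshold (adjusted p = 0.051). Without WT D7 replicate 1 there were 2 calls, and without WT D7 replicate 2 or 3 or WT D14 replicate 2 there were 4. With median-of-ratios scaling 3 were called (Jund, Egr2 and Egr3), and the median of all genes moved from -0.45 to -0.01. The share of all genes called is not given here for these alternatives.

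**Figure D2:**
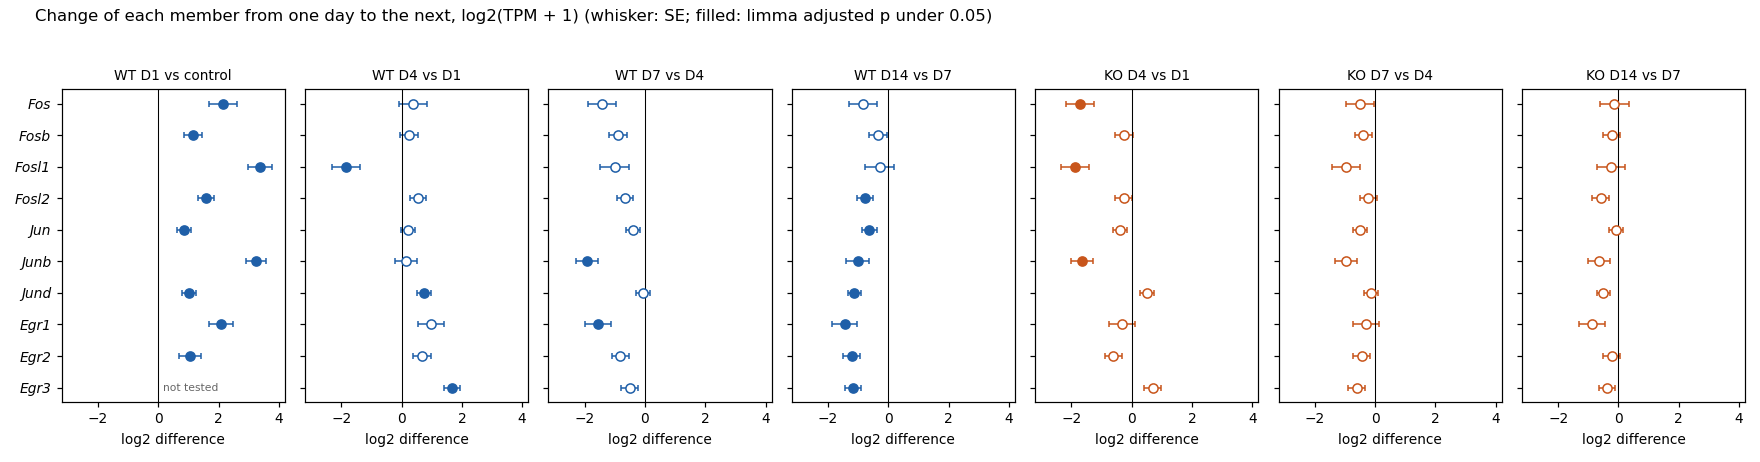
Log2 difference of each member (horizontal axis, log2(TPM + 1) scale) between neighbouring time points, with WT in blue and KO in orange; whiskers are SE and filled points were called by limma. All tested members lie to the right of 0 on WT D1 against control, and Fosl1, Fos and Junb lie furthest to the left in KO muscle from D1 to D4.

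In KO muscle Fos, Fosl1 and Junb fell from D1 to D4. These 3 members were the ones called lower, when 12.2% of all genes tested were. Junb was at 115, 77.6 and 119 TPM on KO D1 and at 49.6, 18.6 and 34.4 TPM on KO D4 (log2 difference -1.65 ± 0.37, adjusted p = 0.0053). Fos was at 40.2, 22.4 and 23.9 TPM on KO D1 and at 13.6, 4.66 and 7.09 TPM on KO D4 (log2 difference -1.72 ± 0.47, adjusted p = 0.017). Fosl1 differed by -1.88 ± 0.48 (adjusted p = 0.011). The libraries did not overlap for any of these 3 genes. Without KO D4 replicate 2 the call of Junb held (-1.28, adjusted p = 0.026), whereas Fos (-1.41, adjusted p = 0.073) and Fosl1 (-1.53, adjusted p = 0.052) were no longer called. Fos was also lost without KO D1 replicate 1 (adjusted p = 0.079), and Fosl1 without KO D1 replicate 3 (adjusted p = 0.081) and with a pseudocount of 0.1 (adjusted p = 0.051). With only the 2 groups in the fit, 0 of 10 were called by limma, with adjusted p from 0.072 to 0.082 for these 3 genes. The share of all genes called in that fit is not given here. Egr3 and Jund were higher on KO D4 than on KO D1 in all libraries, but missed the threshold (log2 difference 0.69 ± 0.27, adjusted p = 0.075, and 0.51 ± 0.23, adjusted p = 0.11). Both were called higher with median-of-ratios scaling (Egr3 0.73, adjusted p = 0.039, and Jund 0.69, adjusted p = 0.005) and with quality weights, and Egr3 also without KO D4 replicate 2 (0.90, adjusted p = 0.04).

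From D4 to D7 in KO muscle 0 of 10 members and 0% of all genes tested were called lower (limma), while 3 members (Jun, Junb and Egr3) and 1555 genes had an unadjusted p under 0.05. Junb was at 18.3, 12.1 and 18.1 TPM on KO D7. Without KO D4 replicate 2, Jun (-0.75, adjusted p = 0.044) and Junb (-1.32, adjusted p = 0.036) were called lower. From D7 to D14, 0 of 10 members were called lower, when 0.477% of all genes tested were. An unadjusted p under 0.05 was reached by 2 members (Fosl2 and Jund) and by 3035 of all 15718 genes tested. All 10 members had lower means in each of these steps on the deposited scale. With median-of-ratios scaling Jund turned to 0.02 in the first of them, and Fos (0.07) and Jun (0.17) turned in the later one. Since neighbouring steps share the libraries of a day, the steps are not independent of each other.

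Shares within a family do not depend on how libraries are scaled, and they set the members against each other. Junb held from 8.61% to 11.7% of the summed TPM of Jun, Junb and Jund in control muscle and from 32.2% to 41.1% on WT D1. On D4 it held from 28.0% to 36.2% in WT and from 13.9% to 19.2% in KO libraries, which did not overlap. By D7 its share was from 11.0% to 12.6% in WT and from 10.1% to 12.1% in KO libraries. Jund took its place, with 33.8% to 39.2% on WT D1 and 61.5% to 65.2% on WT D7, and it already held 51.9% to 61.0% on KO D4, against 40.6% to 49.8% on WT D4.

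Shares within the Fos family also shifted with time. Fosl1 held at most 2.39% of the family's summed TPM in control muscle, from 17.5% to 25.5% on WT D1 and from 10.2% to 23.7% on KO D1. On D7 and D14 its share was at most 7.37% in any library. Fosl2 held from 23.1% to 40.7% on WT D1 and from 51.5% to 60.3% on WT D7. On D4 the share of Fos was from 33.6% to 60.1% in WT and from 31.0% to 38.5% in KO libraries, which overlapped. In the Egr family, Egr3 held from 0.841% to 3.06% of the summed TPM on WT D1, from 11.9% to 17.1% on WT D7 and from 6.97% to 10.2% on KO D7, where the genotypes did not overlap. Shares also did not overlap between genotypes on D1 for Egr1 (78% to 86.6% in WT, 62.9% to 73.8% in KO libraries). The same held on D1 for Egr2 (12.5% to 18.9% against 23.2% to 32.6%) and Fosb (3.1% to 4.45% against 2.11% to 2.99%). On D4 the shares of Jun and Jund did not overlap either, nor did those of Egr1 and Fosl2 on D7. These separations of shares were not tested. Egr1 was the most abundant Egr transcript in all 27 libraries, with at least 62.9% of the family.

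**Figure D3:**
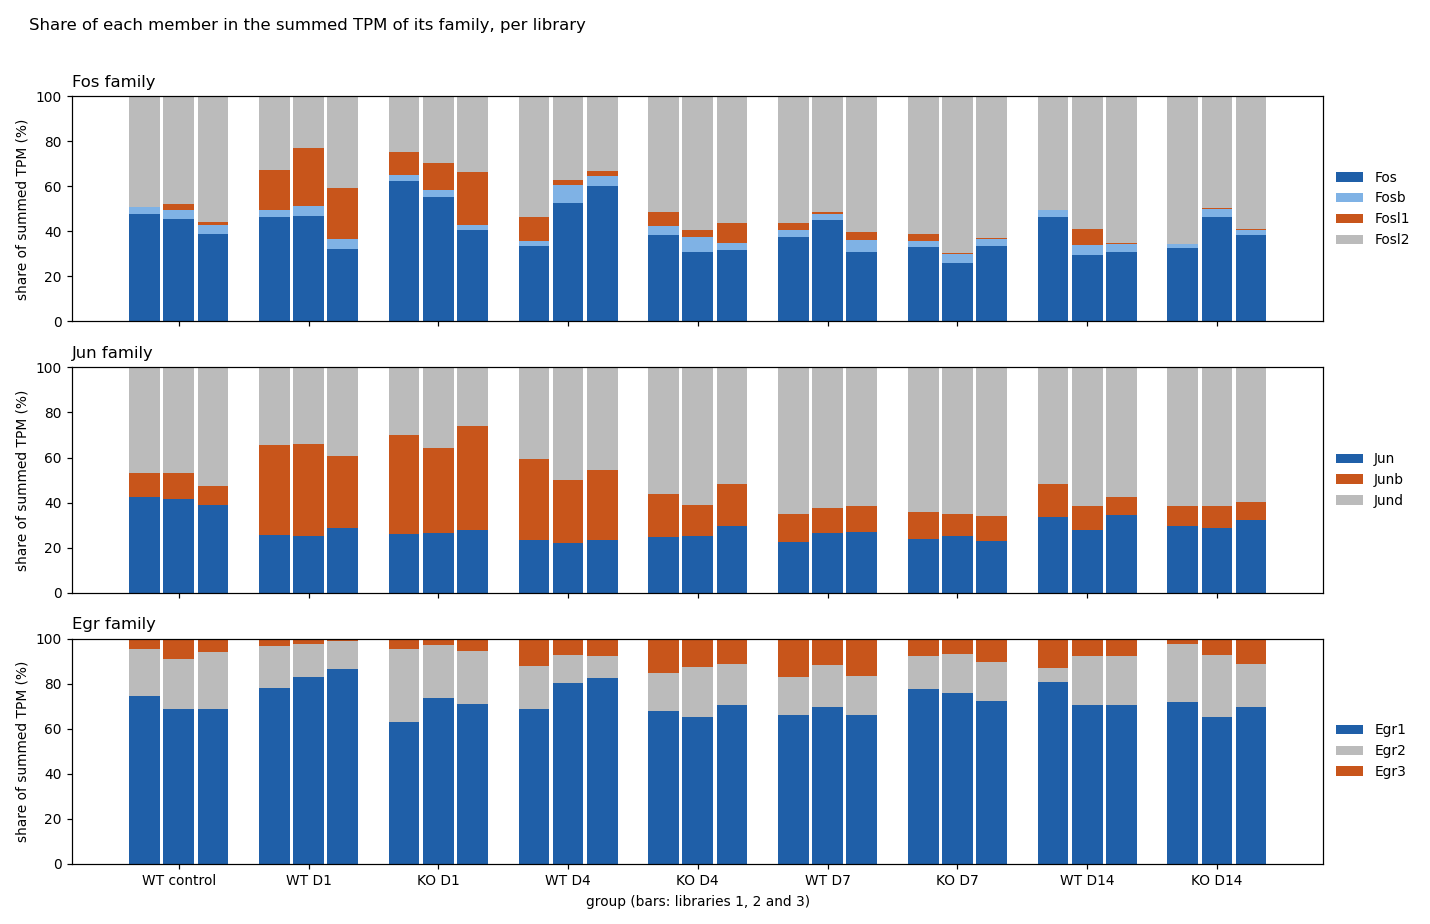
Share of each member in the summed TPM of its family (vertical axis, percent) in each library (bars, in groups of 3), for the Fos, Jun and Egr families from top to bottom. The Junb share (orange in the middle panel) is 32.2% to 41.1% on WT D1 and 8.61% to 11.7% in control muscle, and the Fosl1 share (orange in the top panel) is at most 2.39% in control muscle.

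KO and WT muscle were then compared on each day, to ask whether the members depend on genotype. On D4 all 10 members had lower means in KO than in WT muscle on the deposited scale, while 0 of 10 members and 0% of all 15718 genes tested were called (limma). At an unadjusted p under 0.05 there were 7 members and 3568 genes. The members had a median log2 difference of -0.80 and all genes a median of -0.28. All 3 KO libraries lay below all 3 WT libraries for 5 of the 10 members (Fos, Junb, Egr1, Egr2 and Egr3), when 11.2% of all genes tested did so.

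On D4, Egr1 was at 19.5, 43.0 and 40.0 TPM in WT and at 12.6, 5.20 and 9.80 TPM in KO muscle, with a log2 difference of -1.78 ± 0.43. The mean TPM of Egr1 in KO was 0.269 of that in WT muscle. Fos was at 17.8, 29.9 and 31.6 TPM in WT and at 13.6, 4.66 and 7.09 TPM in KO muscle (log2 difference -1.61 ± 0.47, ratio of means 0.32). Junb was at 119, 78.4 and 82.4 TPM in WT and at 49.6, 18.6 and 34.4 TPM in KO muscle (log2 difference -1.50 ± 0.37, ratio of means 0.367). For these 3 genes the KO library nearest to the WT range was replicate 1. Egr2 was at 5.41, 6.47 and 4.83 TPM against 3.12, 1.74 and 2.51 TPM (log2 difference -0.94 ± 0.29), and Egr3 at 3.48, 3.98 and 3.73 TPM against 2.83, 1.02 and 1.57 TPM (log2 difference -0.80 ± 0.27).

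Fosb (-0.79 ± 0.30) and Fosl2 (-0.73 ± 0.28) also had an unadjusted p under 0.05 on D4, with libraries that overlapped. The adjusted p was 0.21 for each of these 7 members by limma. Fosl1, Jun and Jund overlapped between the genotypes and had an unadjusted p above 0.05. The direction of Jund turned with median-of-ratios scaling (0.02), and that of Fosl1 turned with library quality weights (0.34) and without WT D4 replicate 1 (0.14). By exact two-sided permutation, the smallest p that 3 libraries against 3 can give is 0.1, and each of the 5 members without overlap had it.

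Without KO D4 replicate 2 the same count of 5 members did not overlap (12.2% of all genes), and the log2 difference was -1.46 for Egr1, -1.29 for Fos and -1.13 for Junb (adjusted p = 0.91 each). Without KO D4 replicate 1, 9 of 10 members lay below WT, when 37.1% of all genes did so. With limma's library quality weights, which ran from 0.116 (KO D4 replicate 2) to 4.92 (WT D1 replicate 1), 7 of 10 members were called lower on D4, when 9.54% of all genes were called. Those 7 were Fos, Fosb, Fosl2, Junb, Egr1, Egr2 and Egr3. On D4 the weights of replicates 1, 2 and 3 were 0.235, 3.85 and 0.649 in WT and 0.559, 0.116 and 4.06 in KO muscle. These calls thus lean mostly on 1 library per group. No other setting tried gave a call of a member on D4.

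On D7 all 10 members had lower means in KO muscle in each setting tried, and 0 of 10 members and 0% of all genes tested were called (limma). An unadjusted p under 0.05 was reached by 2 members and 481 genes. KO libraries lay below WT libraries for 8 of the 10 members, Fosl1 and Fosl2 being the exceptions, when 14.6% of all genes tested did so. Jun was at 48.76, 50.04 and 50.63 TPM in WT and at 35.7, 29.9 and 38.1 TPM in KO muscle (log2 difference -0.52 ± 0.23). Egr3 was at 2.75, 1.70 and 2.59 TPM in WT and at 0.72, 0.48 and 1.18 TPM in KO muscle (log2 difference -0.90 ± 0.27). The adjusted p was 0.78 for both. Egr1 was within a narrow range in WT (10.6, 9.94 and 10.3 TPM), above the 7.22, 5.23 and 8.32 TPM of KO muscle.

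On D1 and D14 no member separated the genotypes by its TPM. On D1, 0 of 10 members were called, when 0.00636% of all genes tested (1 gene) were, and no member and 845 genes had an unadjusted p under 0.05. On D14, 0 of 10 members and 0% of all genes tested were called, again with no member and with 324 genes at an unadjusted p under 0.05. The count of members whose KO libraries all lay below WT was 0 on D1 (3.38% of all genes) and 0 on D14 (1.04%). The log2 differences were from -0.48 to 0.49 on D1 and from -0.32 to 0.44 on D14, and their direction changed for most members when a single library was left out. Egr1 on D1 was at 10.2, 11.7 and 11.5 TPM in KO libraries, inside the spread of the WT libraries from 8.24 to 29.5 TPM.

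**Figure D4:**
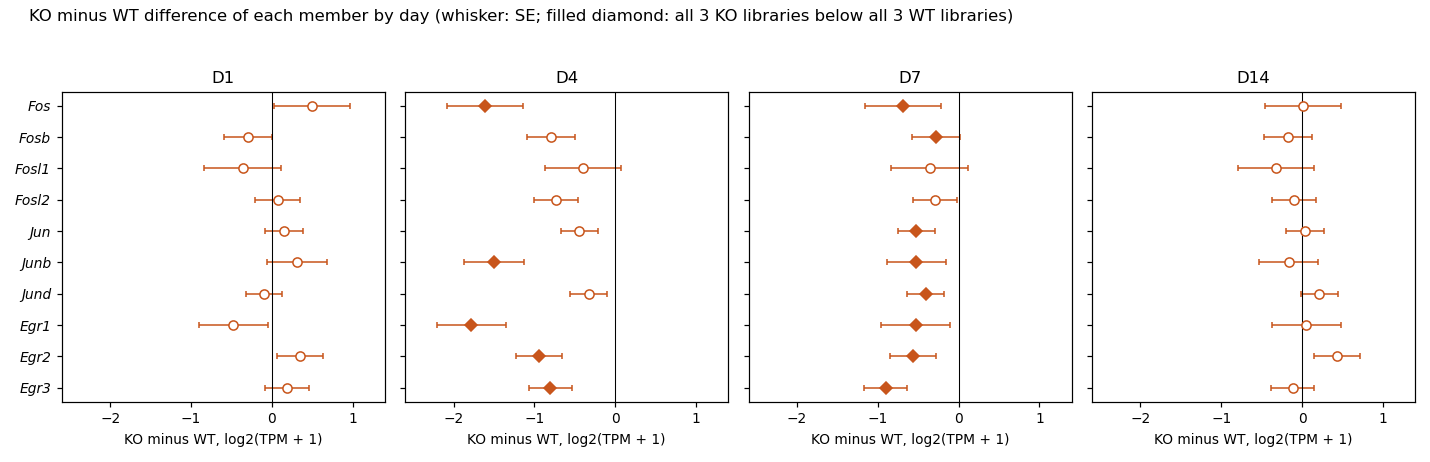
KO minus WT log2 difference of each member (horizontal axis, log2(TPM + 1) scale) on each day (panels); whiskers are SE and filled diamonds mark members whose 3 KO libraries all lie below the 3 WT libraries. There are 5 such members on D4, 8 on D7 and 0 on D1 and D14, and no difference passed the adjusted threshold.

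Averaged over the 4 days, KO muscle was lower than WT muscle for all 10 members, and 0 of 10 members were called (limma, adjusted p = 0.86 each), when 0.00636% of all genes tested (1 gene) were. The difference was -0.68 ± 0.21 for Egr1, -0.47 ± 0.18 for Junb, -0.41 ± 0.13 for Egr3 and -0.38 ± 0.15 for Fosb on the log2 scale, each with an unadjusted p under 0.05 (limma). Among all 15718 genes tested, 556 had such a p. Exact two-sided permutation of genotype within days, over 160000 assignments, gave p = 0.017 for Egr1, p = 0.012 for Fosb, p = 0.023 for Egr3 and p = 0.06 for Junb. For the remaining members the permutation p was from 0.0938 (Fosl2) to 0.364 (Egr2). These 10 permutation values were not adjusted for each other. The direction of the average held for all 10 members in each setting tried.

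Whether the genotype difference changed between days was tested by interaction terms. From D1 to D4, 0 of 10 members and 0% of all genes were called, with 5 members and 3667 genes at an unadjusted p under 0.05. The KO minus WT difference fell by 2.10 ± 0.67 for Fos, by 1.81 ± 0.52 for Junb, by 1.30 ± 0.61 for Egr1, by 1.29 ± 0.40 for Egr2 and by 0.99 ± 0.38 for Egr3 on the log2 scale (adjusted p from 0.2 to 0.21). The median of all genes was -0.38 in this term. From D4 to D7, 0 of 10 members and 0% of genes were called, with no member and 445 genes at an unadjusted p under 0.05. From D7 to D14, 0 of 10 members and 0% of genes were called, with 1 member (Egr2, 1.00 ± 0.40) and 486 genes at an unadjusted p under 0.05. In the test over all days, 0 of 10 members and 0% of genes were called, while Fos, Junb, Egr1, Egr2 and Egr3 and 1203 genes had an unadjusted p under 0.05 (adjusted p = 0.53 for each member named).

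Within groups the members moved together from library to library. In WT D1, replicate 2 was the highest library for 10 of 10 members and replicate 3 the lowest for 10 of 10. In KO D4, replicate 1 was the highest for 10 and replicate 2 the lowest for 9 members, and KO D7 replicate 2 and WT D14 replicate 3 were the lowest of their groups for 9 members each. Over the 24 injured libraries the 45 pairs of members had a median Pearson's r of 0.76. After the group means were removed the median was 0.69, with 35 pairs above 0.5 and 0 below 0. The same libraries also differed beyond the members. Genes at 1 TPM or above numbered 13966 in WT D1 replicate 2 and 13105 in replicate 3, and 14380 in KO D4 replicate 1 and 12961 in replicate 2. Whether the members moved together more than other genes did was not tested. The libraries share batch and cell makeup, so that these correlations describe the set and are not tests.

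Markers of several cell types moved in the same libraries. For the counts on injury below, 55.4% of all 13041 genes tested were called higher and 736 genes were called lower (limma). On injury all 9 monocyte and macrophage markers and all 6 tested neutrophil markers were called higher in WT muscle, as were 4 of 4 tested satellite cell and myoblast markers and 4 of 7 of fibro-adipogenic progenitors. Of 9 mature fibre markers 2 were called lower, as were 4 of 4 tested adipocyte and 2 of 5 Schwann cell markers. Of 7 endothelial markers 1 was called higher and 1 lower, and 0 of 5 erythrocyte markers were called (0 at an unadjusted p under 0.05). Of 9 acinar pancreas markers, listed as a check for foreign tissue, 1 was tested and called higher. The summed TPM of 9 monocyte and macrophage markers was 2211, 3392 and 802.4 in WT D1 replicates 1, 2 and 3, in the same order as the members. It was 3776, 479.1 and 3152 in KO D4 replicates 1, 2 and 3, 1295, 495.8 and 1218 on KO D7 and 343.4, 606.7 and 180.8 on WT D14. On KO D7 and WT D14 the lowest library was that of most members, but the highest was not. The highest for the members was replicate 3 on KO D7 (8 members) and replicate 1 on WT D14 (7 members). On D4 it was between 2724 and 5478 in WT libraries, all 9 markers had lower means in KO muscle, and 0 of 9 were called (median log2 difference -1.04). All 15718 genes had a median of -0.28 on D4, and 3568 of them had an unadjusted p under 0.05 (limma). No macrophage marker was at 0 in any library. The sum of 9 neutrophil markers was 280.8, 621 and 58.6 on WT D1, and Ly6g, which defines these cells, was at 0 in all 6 libraries of D4. All 6 satellite cell markers had lower means on KO D4 than on WT D4, with 4 at an unadjusted p under 0.05 and 0 called. Sums of fibro-adipogenic progenitor markers had a median of 5175 on KO D4 and 7043 on WT D4. Endothelial markers had medians of 228.85 and 253.44, and both lists overlapped between the genotypes. Mature fibre markers went the other way, with sums of 67240, 140510 and 112649 on KO D4 against 41139, 84264 and 89151 on WT D4, which overlapped. Adipocyte markers (5 of 5, median log2 difference 1.14), Schwann cell markers (5 of 5, median 0.91) and acinar pancreas markers (4 of 5 tested, median 1.28) also had higher means on KO D4 than on WT D4, with 0, 0 and 2 at an unadjusted p under 0.05 and 0 called by limma. KO D4 replicate 2 had the highest sum of each of these 3 lists among the 6 libraries of D4 (1095, 1314 and 66.7 TPM). The part of cell makeup in the members' differences was not tested.

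**Figure D5:**
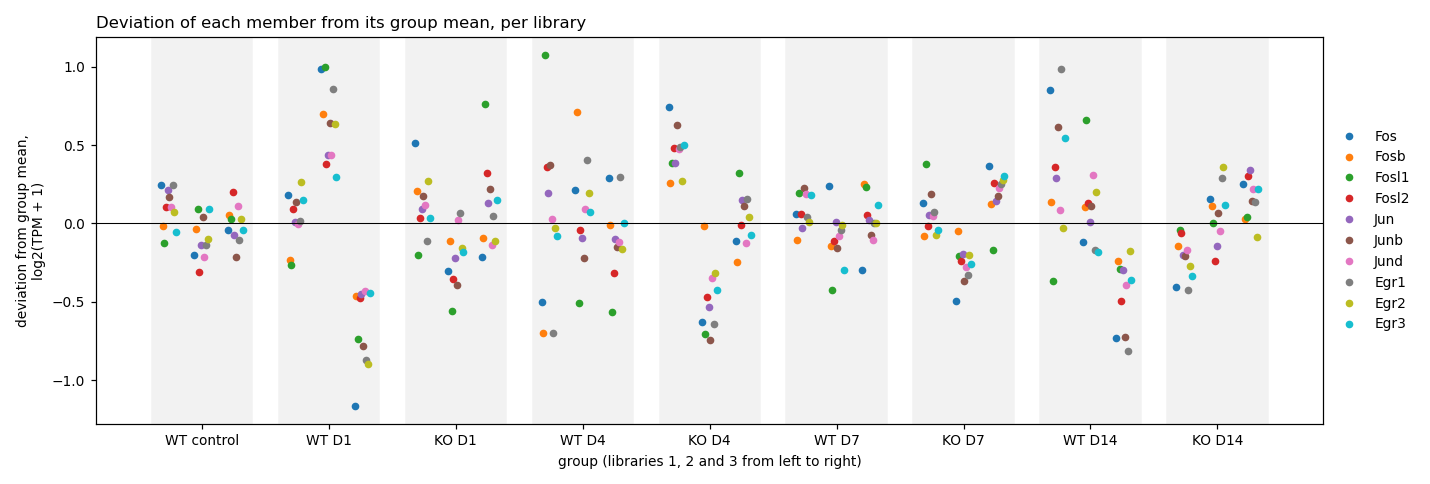
Deviation of each member from the mean of its group (vertical axis, log2(TPM + 1) scale) in each of 27 libraries (3 per shaded group, in order of replicate), with 1 colour per member. All 10 members lie above the group mean in WT D1 replicate 2 and below it in replicate 3.

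Other immediate early genes were counted on the same comparisons. Of all genes tested, 55.4% were called higher on WT D1 against control and 19.8% in either direction on WT D4 against D1. The share called lower was 12.2% on KO D4 against D1, 9.31% on WT D7 against D4 and 0% on KO D7 against D4. Of 40 such genes tested in WT D1 against control, 34 were called higher and 0 lower (median log2 difference 1.64), among them Socs3 (3.42, adjusted p = 0.0016), Myc (2.73, adjusted p = 0.0013) and Ier3 (2.63, adjusted p = 0.0011). From D1 to D4 in WT muscle, 1 of 42 was called higher (Rhob) and 4 lower, and 29 of the 42 had lower means (median -0.23), with Nr4a3, an orphan nuclear receptor, falling by 1.46 (adjusted p = 0.0014). In KO muscle over the same interval 21 of 42 were called lower and 1 higher, including Cebpb (-2.41, adjusted p = 0.00022), Socs3 (-2.33, adjusted p = 0.0088) and Ier3 (-2.22, adjusted p = 0.00077). From D4 to D7, 7 of 42 were called lower in WT muscle, Sik1 (-1.19, adjusted p = 0.0046) and Ier2 (-0.93, adjusted p = 0.04) among them, and 0 of 42 in KO muscle. On D4, 34 of the 42 had lower means in KO than in WT muscle, 17 had an unadjusted p under 0.05 and 0 were called by limma. All 15718 genes had a median log2 difference of -0.28 there, and 3568 of them had an unadjusted p under 0.05. Ier2 (-1.15, adjusted p = 0.21) and Sik1 (-0.85, adjusted p = 0.21) were among the 17 and did not pass.

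The genes that act with or upstream of the members were counted in the same way, against the 55.4% of all genes called higher on WT D1 against control. Of 13 dimer partners of AP-1, 11 were called higher on WT D1 against control, among them Batf (2.55, adjusted p = 0.0044) and Jdp2 (1.94, adjusted p = 0.0024). From D1 to D4, Mafg, which encodes a small Maf protein, was called lower in both genotypes, at -1.04 (adjusted p = 0.00017) in WT and -1.25 (adjusted p = 6.5e-05) in KO muscle. Of 18 upstream kinases and factors, 13 were called higher on injury, among them the kinase gene Rps6ka3 (1.52, adjusted p = 0.0015), and Srf (-0.51, adjusted p = 0.048) and Map2k2 (-0.50, adjusted p = 0.02) were called lower on WT D7 against D4. Both Egr cofactors rose on injury, Nab2 by 2.00 (adjusted p = 0.0019) and Nab1 by 1.53 (adjusted p = 0.0042). These encode corepressors of Egr proteins. None of the 13 partners, 18 upstream genes and 2 cofactors was called between genotypes on D4 by limma, with 1, 4 and 0 at an unadjusted p under 0.05. Of all 15718 genes, 3568 had such a p.

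Known target genes of AP-1 and Egr proteins were also counted. Of all genes tested, 55.4% were called higher on WT D1 against control and 12.2% lower on KO D4 against D1. Of 14 tested in WT D1 against control, 13 were called higher and 1 lower, with Ccl2, the gene of a monocyte chemokine, at 6.68 (adjusted p = 0.00062) and Timp1 at 5.28 (adjusted p = 0.00099). In KO muscle from D1 to D4, 9 of 16 were called lower, such as Ccl2 (-5.89, adjusted p = 0.00022) and Hmox1 (-3.35, adjusted p = 0.001). In WT muscle over that interval Ccl2 was called lower (-3.58, adjusted p = 0.0046) and the collagenase gene Mmp13 higher (2.43, adjusted p = 0.025). On D4, 15 of 16 had lower means in KO than in WT muscle, 5 had an unadjusted p under 0.05 (limma) and 0 were called. Among all 15718 genes the median log2 difference was -0.28, and 3568 had an unadjusted p under 0.05. Of the 4 resident macrophage genes that the study links to JUN (Lyve1, Cd163, Folr2 and Txnip), 3 had higher means in KO muscle on D4. Lyve1, a hyaluronan receptor, differed by 0.80 (adjusted p = 0.21) and was not called by limma. The summed TPM of these 4 genes was 376.3 to 466.3 in KO and 306.2 to 338.5 in WT libraries on D7. Among all 15718 genes tested, 291 had all KO libraries above all WT libraries on D7. On D14 the direction was the other way, with a median of 279.9 in KO and 328.8 in WT libraries. The ranges on D14, 258.95 to 289.09 in KO and 289.04 to 379.43 in WT libraries, overlapped slightly. These lists were chosen with results of these data known, and the genes they hold are expressed by several cell types of muscle.

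The genes whose course was most like each member's were sought among 9502 others with a mean of at least 5 TPM, by Pearson's r on log2(TPM + 1) over the 24 injured libraries. Ier2, another immediate early gene, came first for Fos (r = 0.948), Egr1 (r = 0.924) and Fosb (r = 0.891), and Btg2 was also among the first 3 for Fosb (r = 0.86). Mvp (r = 0.982) came first for Junb, Rara (r = 0.969) for Jun, Frmd6 (r = 0.969) for Jund, Slc39a11 (r = 0.975) for Fosl2 and Slfn4 (r = 0.971) for Fosl1. For Egr2 it was Olfm1 (r = 0.955). For Egr3, the only member with a peak at WT D4 that was several-fold above WT D1, it was Ednra (r = 0.943), followed by Wdr6 and Cdon (r = 0.934 each). The libraries share day, genotype and cell makeup, so that a high r describes a shared course and no more.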

How the data were processed

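RNA from 27 muscle libraries was sequenced by the authors, paired-end. The 2 deposited tables give TPM per library and gene, made by the authors on build mm10 per the submitters' processing notes. The aligner and counter are not given in the sources used here, and TPM keeps no depth. Deposited group means were not used. No 2 libraries held the same values except WT D1, present in both tables, so each test stayed within 1 table. Genes with at least 1 TPM in at least 3 libraries were tested on log2(TPM + 1) with limma 3.58.1 (R 4.3.3), with 1 mean per group and a mean-variance trend. The fit held 8 groups of injured muscle, or control and WT D1. P-values were Benjamini-Hochberg adjusted over all genes tested, with a threshold of 0.05. A fold on this scale understates the change of low genes. The code was tested on simulated data. Members and lists (other immediate early genes, AP-1 partners, upstream genes, Egr cofactors, targets, resident macrophage genes and cell type markers) were chosen with earlier results of these data known. Text names the members and, per list, genes with the lowest p, and some list genes are not reported here. Alternatives were another pseudocount (0.1), no filter, a filter at 5 TPM, median-of-ratios scaling, quality weights, fits of 2 groups, a replicate block and leaving out each library. Replicate numbers are in the titles, and the labels tie them to nothing. Deviations of libraries with the same number correlated at 0.13 to 0.442 in each pair of KO D4 against D1 and KO D7 against D4. There the fit with the number as a block also gave 3 and 0 calls. In other comparisons the numbers did not pair the samples by this check.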

Additional observations from a re-analysis of the deposited data

How the results depend on the processing

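No direction of a called count was turned by an alternative. The limits are 3 libraries per group, unknown depth, and TPM, which is relative within a library. With median-of-ratios scaling 3 members were called on WT D14 against D7 (7 as deposited) and 5 on KO D4 against D1 (3 lower as deposited, to which Jund and Egr3 were added as higher). Without the filter the counts were 4 on WT D14 against D7 and 1 on WT D7 against D4 (2 with it). With only the 2 groups compared in the fit, the counts were 1 on WT D4 against D1, 4 on WT D7 against D4 and 0 on KO D4 against D1. Library quality weights, estimated gene by gene because the default algorithm did not converge (a choice made after seeing the data), gave 6 calls on WT D4 against D1, 9 on WT D7 against D4, 7 on KO D4 against D1, 3 on KO D7 against D4 and 5 on KO D14 against D7. They also gave 7 calls between genotypes on D4, 2 on average, 7 and 2 for the change of the genotype difference from D1 to D4 and from D4 to D7, and 5 for its change over all days. With these weights 47.2%, 49.9%, 51.5%, 33.6% and 42.4% of all genes were called in the first 5 of these, and 9.54%, 0.763%, 30.9%, 0.884% and 16.5% in the other 5. The cause of these moves was not tested. For the other alternatives, including each library left out, the share of all genes called is not given here. Their counts of members therefore cannot be set against it.

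Leaving out 1 library gave from 6 to 8 calls on injury, 1 to 4 on WT D4 against D1, 1 to 3 on WT D7 against D4, 0 to 7 on WT D14 against D7, 2 to 3 on KO D4 against D1 and 0 to 2 on KO D7 against D4. The count of members without overlap, recomputed after seeing the data, was 5 to 9 on D4 and 8 to 10 on D7. With the replicate number as a block, 6 members were called on WT D14 against D7 in place of 7 (Jun at an adjusted p of 0.0501 by limma), and no other count of calls changed. The other counts stayed within 1.5 times of the reported ones with a pseudocount of 0.1 and with a filter at 5 TPM.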
